A study of Mus musculus with 6 samples.

Results

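The comparison was between bone marrow (BM) of mice rescued with mouse mesenchymal stromal cells (mMSCs) after lethal irradiation and BM of unmanipulated mice. It used 4 of the 6 arrays of the series, which were chosen by the sample labels alone. The MSC group consisted of female mice (C57BL/6J in the labels, C57BL/6J-CD45.1 in the methods) that received 9.5 Gy and then bulk mMSCs, which were expanded from male C57BL/6J BM and carried a retroviral eGFP label. It comprised 2 pools of marrow with 3 mice in each. The HSC group received 9.5 Gy and unsorted BM cells that included hematopoietic stem cells, with 2 mice in each of 2 pools. The BM group was age-matched, received no radiation and no cells, and comprised 2 pools with 2 mice in each. The labels give an age of 6 to 10 weeks for all samples. The methods of the study place the sampling at day 21 after transplantation, whereas 7 months stands in the series design. No array of irradiated mice without a cell graft was analysed here, so the radiation and the mMSCs cannot be told apart in MSC against BM. The HSC group, with the same dose and another graft, is given beside the main result. Each array was hybridized with RNA of a separate pool, so that the error is the spread between pools.

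Marrow is made up of maturing red cells, granulocytes and monocytes, developing B cells, megakaryocytes that shed platelets, and a minority of stem cells, held in a stroma of fibroblast-like, bone-forming, fat-storing and vascular cells. Ionizing radiation kills dividing and lymphoid cells first, activates the transcription factor p53, and is followed by regrowth from the surviving or grafted progenitors, in which granulocytes and red cells usually return before B cells. Stromal cells and macrophages of injured marrow are known to release chemokines that recruit monocytes and T cells, and interferon makes many cell types transcribe a shared set of antiviral genes.

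All samples were hybridized to 1-colour CodeLink bioarrays with short DNA probes to mouse transcripts. An array carried 19801 probes and 488 control spots, 20289 in all. Between 11072 and 12510 probes were above the local background on an array, and the spot-to-background ratio had medians of 2.10 to 2.69. Values are log2 of the background-corrected and quantile normalized spot intensity, so that a difference of 1 is a doubling. The marrow label held for all groups: the neutrophil granule genes lactoferrin (Ltf) and neutrophil elastase (Elane) were between 13.88 and 15.23 on all 6 arrays. The skeletal muscle markers Acta1 and Ckm were above background on no array. Eif2s3y, a gene of the Y chromosome, was above background on neither MSC nor BM array, whereas it had 11.74 and 10.99 on the HSC arrays. The ribosomal gene Rps27a, used as a reference by the study, was saturated on all arrays with 15.59 and 15.50 in MSC and 15.49 and 15.48 in BM.

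A pool of either group stood apart from their partners. Of 11619 tested probes with values on both BM arrays, 132 were more than 2 higher on BM replicate 1 than on BM replicate 2, against 8 in the opposite direction. BM replicate 2 was not above background for 77 of these 132 probes, and none of the 132 was called in MSC against BM. They included Klf1, the transcription factor of red cell maturation, with 11.54 on BM replicate 1 and 7.28 on BM replicate 2, Fos with 12.04 and 7.48, and the histone gene H2ax with 11.36 and 7.45. Of the 124 such probes measured on the 4 other arrays, both MSC arrays were nearer to BM replicate 1 for 93 and both HSC arrays were nearer to BM replicate 2 for 67. The 77 probes with BM replicate 2 not above background were tested only because both MSC arrays were above background. The filter thus favoured high MSC values and set no rule for HSC, so these counts do not measure likeness between the groups. In the MSC group, 55 of 11408 probes were more than 2 higher on replicate 2 than on replicate 1, against 4 in the opposite direction. They included genes of T cells, natural killer (NK) cells and macrophages. The cause of either difference was not tested.

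**Figure D1:**
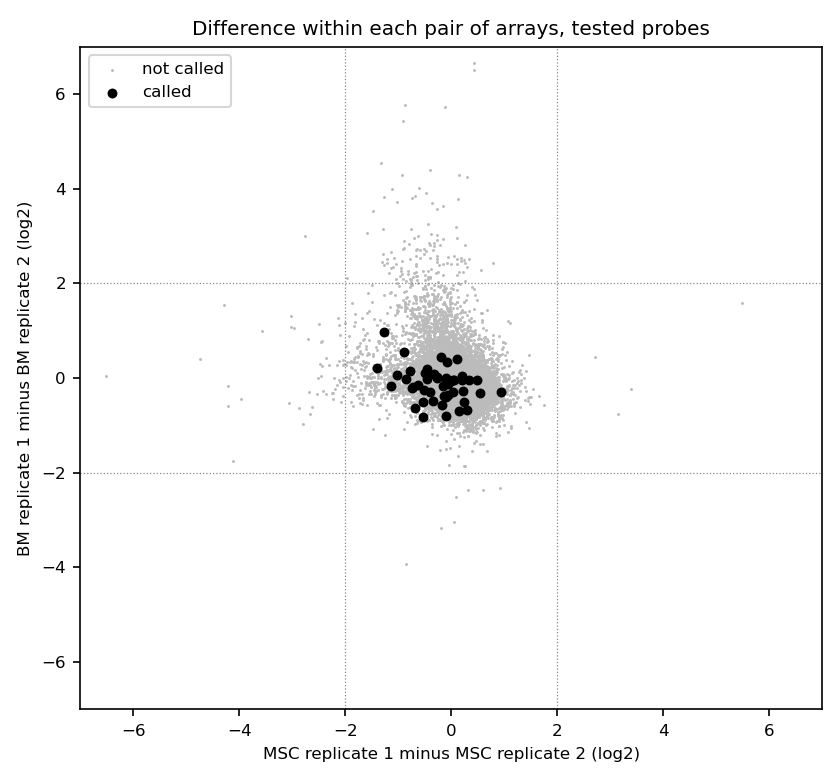
Each point is a probe tested in MSC against BM, with the log2 difference between the 2 MSC arrays on the x axis and between the 2 BM arrays on the y axis; dotted lines mark 2 and -2. Called probes (black) lie near the centre, whereas 132 grey points lie above 2 on the y axis and 55 lie below -2 on the x axis.

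A probe was tested in MSC against BM when both arrays of at least 1 group gave a good spot above background. This held for 11861 probes, of which 1303 qualified through MSC alone and 925 through BM alone. With limma and an adjusted p under 0.05, 51 probes (0.43%) were called. Of these, 18 (0.152%) were higher and 33 (0.278%) were lower in MSC than in BM. A symbol was known for 17 of the higher and 27 of the lower ones. The median log2 fold change over all tested probes was 0.01. Genes of B cells and platelets and a pair of kallikreins were among those that fell, whereas the monocyte chemokine Ccl8, the T cell chemokine Cxcl9, the acute phase gene Saa3 and the p53 target Cdkn1a were among those that rose. Fewer cells of a type and less RNA per cell cannot be told apart in RNA of whole marrow. The number of calls depended on the arrays in the fit: 22 probes were called with the 4 MSC and BM arrays alone, 14 without MSC replicate 2 and 54 without MSC replicate 1. Of the 44 named genes, 25 were called in fewer than 50% of 16 limma alternatives, Cxcl9, Col3a1, Mgp, Hspa1a, Tgtp1, Ptx3 and Ebf1 among them, while the sign was kept in all of these alternatives. Ppbp, Treml1, Clec1b, Ms4a1, Klk1b5 and Cda were called in each of the limma alternatives that gave them a value. Among these alternatives, the fits without either HSC array equalled the fit of the 4 MSC and BM arrays alone, so they add no separate check.

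**Figure D2:**
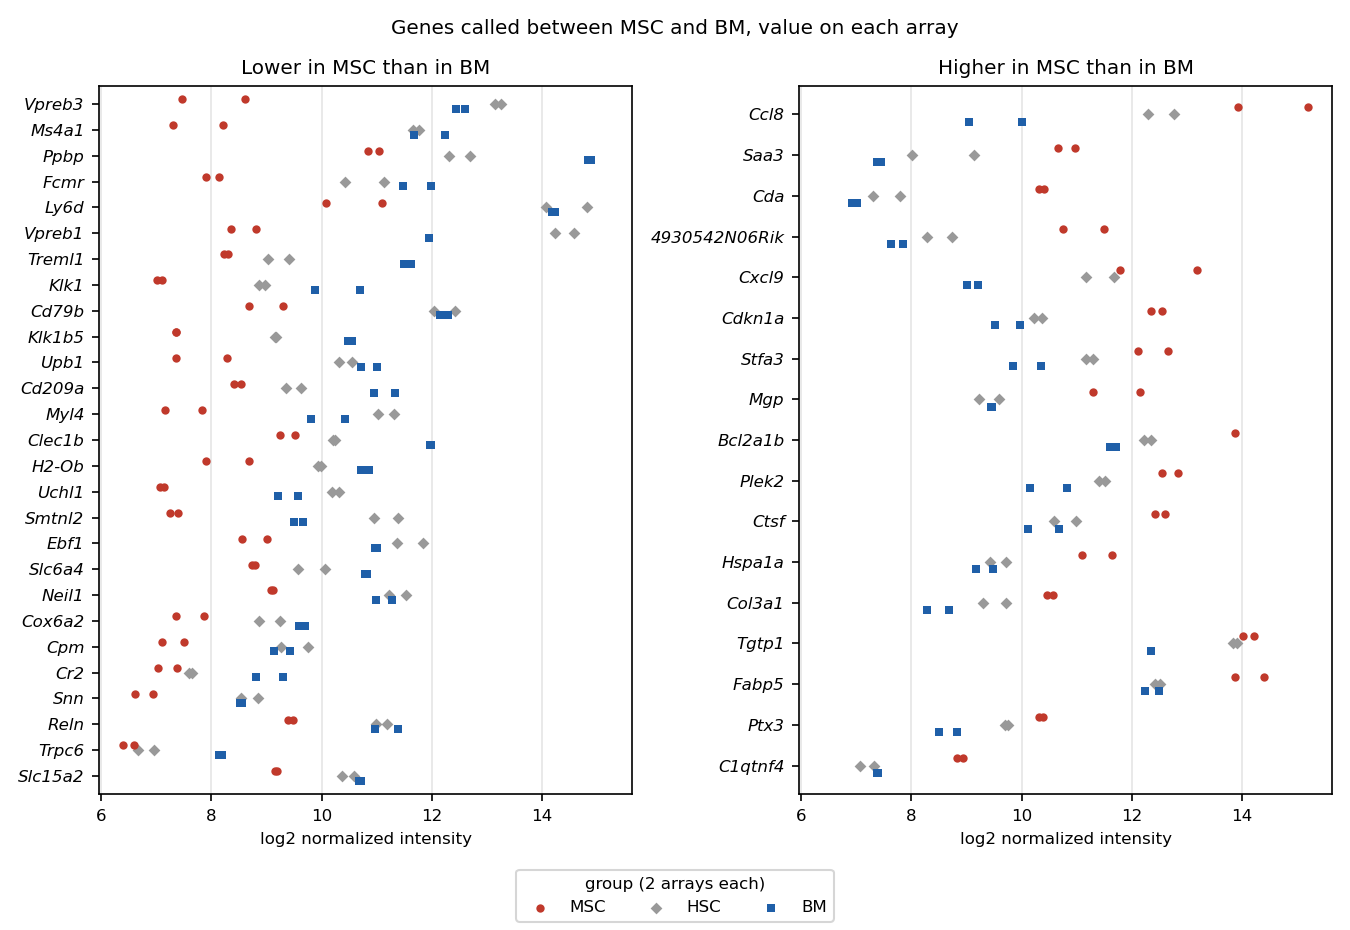
Log2 normalized intensity (x axis) of the 44 called genes with a symbol on each array, with MSC in red, HSC in grey and BM in blue. No red point overlaps the blue points of its gene, and the grey points lie near the blue ones for Vpreb3, Ms4a1 and Cd79b and between red and blue for Ppbp, Treml1, Clec1b and Ccl8.

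Promoters are shown for some called genes with large changes, namely Ccl8, Cxcl9 and Saa3 among those that rose and Vpreb3 and Ppbp among those that fell. Those of Ms4a1, which fell more than Ppbp, and of Cda and 4930542N06Rik, which rose about as much as Cxcl9, are not shown. The sequences are the 250 bases before the annotated start in RefSeq (build GRCm38.p6), read 5′ to 3′ on the strand of the gene. Capitals mark matches on either strand to 7 motifs: the interferon-gamma activated site TTCNNNGAA, the interferon-stimulated response element, an NF-kB site, the EBF site CCCNNGGG of early B cell factor, the GATA site AGATAA, the TATA box TATAAA and the octamer ATGCAAAT of immunoglobulin promoters. The octamer was added after the Vpreb3 sequence had been seen.
Ccl8, chr11:82114935-82115184, plus strand: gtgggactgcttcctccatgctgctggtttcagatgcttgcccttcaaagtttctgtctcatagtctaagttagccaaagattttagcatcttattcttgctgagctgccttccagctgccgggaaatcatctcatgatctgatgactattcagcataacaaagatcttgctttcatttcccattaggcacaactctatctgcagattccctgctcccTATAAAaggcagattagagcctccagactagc
Cxcl9, chr5:92328080-92328329, minus strand: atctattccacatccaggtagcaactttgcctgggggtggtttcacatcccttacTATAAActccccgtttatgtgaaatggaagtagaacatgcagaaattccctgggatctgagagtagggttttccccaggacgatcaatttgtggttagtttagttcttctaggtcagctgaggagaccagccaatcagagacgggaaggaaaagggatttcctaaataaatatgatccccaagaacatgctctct
Saa3, chr7:46715677-46715926, minus strand: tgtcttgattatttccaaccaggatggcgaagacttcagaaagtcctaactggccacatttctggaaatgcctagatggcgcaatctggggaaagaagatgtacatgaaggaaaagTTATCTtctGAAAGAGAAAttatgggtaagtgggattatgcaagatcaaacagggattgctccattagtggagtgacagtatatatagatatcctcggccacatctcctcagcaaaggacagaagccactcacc
Vpreb3, chr10:75948050-75948299, plus strand: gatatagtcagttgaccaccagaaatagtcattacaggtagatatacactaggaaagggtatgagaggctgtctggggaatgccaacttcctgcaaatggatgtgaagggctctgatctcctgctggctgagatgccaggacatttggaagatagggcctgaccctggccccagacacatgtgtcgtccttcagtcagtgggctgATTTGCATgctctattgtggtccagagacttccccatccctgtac
Ppbp, chr5:90768268-90768517, plus strand: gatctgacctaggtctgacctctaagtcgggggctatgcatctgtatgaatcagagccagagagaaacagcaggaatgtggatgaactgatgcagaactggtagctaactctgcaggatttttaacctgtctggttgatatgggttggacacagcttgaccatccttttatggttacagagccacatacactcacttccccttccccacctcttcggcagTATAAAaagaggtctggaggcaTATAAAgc
The Ccl8 and Ppbp windows held TATAAA from positions -32 and -30 relative to the start, and 12.4% of 32841 promoters searched held this motif anywhere in the window. The Saa3 window held GAAAGAGAAA, a match to the interferon-stimulated response element that 2.98% of promoters contained, and next to it a GATA match, which 9.99% contained. The Vpreb3 window held the octamer as ATTTGCAT, which was found in 1.6% of promoters. No other listed motif occurred in the windows of Vpreb3 and Ppbp, and Cxcl9 had only a TATAAA far from the start. A match says only that the letters are present.

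Several genes of the B lineage fell. Of the 16 tested early B cell genes 4 fell and none rose, and of the 11 tested mature B cell genes 4 fell and none rose, against 0.278% of all tested probes that were lower. The median log2 fold change was -0.97 in either list. Over all members on the array it was -0.97 for the 16 early and -0.84 for the 13 mature B cell genes. Of the tested early genes, 4 were tested through BM alone and 3 through MSC alone, and of the mature genes 3 and 2. Vpreb3, which takes part in the assembly of the pre-B cell receptor, had 7.47 and 8.60 on the MSC arrays, 13.15 and 13.26 on the HSC arrays and 12.43 and 12.60 on the BM arrays. Both MSC values were far below all others, and the first of them was not above background. The fall by 4.48 (SE 0.37, adjusted p = 0.0105) corresponded to 22.3-fold. Vpreb1, the surrogate light chain of the same receptor, had 8.35 and 8.82 in MSC, 14.24 and 14.59 in HSC and 11.95 on the single usable BM array. It fell by 3.37 relative to BM (adjusted p = 0.0267), a value that rests on that array, and its probe may also bind the near-identical Vpreb2.

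Cd79b, which couples the B cell receptor to signalling, showed 8.68 and 9.30 in MSC, 12.05 and 12.42 in HSC and 12.15 and 12.29 in BM. It fell by 3.23 (SE 0.27, adjusted p = 0.0105). Its partner chain Cd79a did not follow, with 11.55 and 11.88 in MSC, 11.96 and 11.51 in HSC and 12.06 and 11.75 in BM, so that the groups overlapped. Ebf1, the transcription factor that commits progenitors to the B lineage, had 8.56 and 9.01 in MSC, 11.37 and 11.84 in HSC and 10.977 and 10.999 in BM, and fell by 2.20 (adjusted p = 0.0288).

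Among genes of mature B cells, Ms4a1 (CD20) had 7.30 and 8.20 in MSC, 11.77 and 11.66 in HSC and 12.24 and 11.69 in BM. It fell by 4.21 (SE 0.34, adjusted p = 0.0105), or 18.5-fold, with MSC replicate 1 not above background. Fcmr, the Fc receptor for IgM, had 8.14 and 7.90 in MSC, 10.43 and 11.13 in HSC and 11.47 and 11.99 in BM, and fell by 3.71 (adjusted p = 0.0105). Ly6d, a surface protein of B-committed lymphoid progenitors, was counted in the mature list although it also marks this earlier stage. It showed 10.08 and 11.10 in MSC, 14.07 and 14.83 in HSC and 14.24 and 14.18 in BM, and fell by 3.62 (adjusted p = 0.0235). The complement receptor Cr2 was above background on neither MSC nor HSC array and had 8.81 and 9.29 in BM. It was at least 3.15-fold lower in MSC (adjusted p = 0.0428). The B cell kinase Blk had 7.25 and 7.51 in MSC against 9.17 and 8.52 in BM, and did not pass (adjusted p = 0.189).

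Recipients of BM cells offered a second reference with the same dose. In MSC against HSC, 56 of 11660 probes (0.48%) were called, and this comparison shares the MSC arrays with the main one. Vpreb1 differed by -5.83 (SE 0.27, adjusted p = 0.0042), Vpreb3 by -5.17 (SE 0.36, adjusted p = 0.0062), Ms4a1 by -3.97, Ly6d by -3.86, Cd79b by -3.24, Ebf1 by -2.82 and Fcmr by -2.76 (adjusted p between 0.014 and 0.027 for the last 5). These B cell genes were thus low in mMSC recipients relative to either group.

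None of 9 tested plasma cell genes was called, with a median of -0.15, and 4 were lower on both MSC arrays than on both BM arrays (22.8% of all tested probes). The chaperone Mzb1 had 9.95 and 12.11 in MSC, 13.10 and 13.59 in HSC and 12.92 and 12.65 in BM (fold change -1.75, adjusted p = 0.34), and the plasma cell factor Irf4 had 7.55 and 8.58 in MSC against 9.01 and 9.52 in BM (adjusted p = 0.285). The heavy chain Ighm, which was looked up after its values had been seen, was split between the MSC pools. One of its probes had 10.73 and 15.02 in MSC, 13.02 and 12.27 in HSC and 14.74 and 13.20 in BM, and the other had 12.20 and 15.18 in MSC. MSC replicate 2 thus had as much Ighm signal as BM, while MSC replicate 1 had less.

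Platelet genes fell as well. Of 15 tested megakaryocyte and platelet genes 3 fell and none rose, against 0.278% of all tested probes that were lower. The median was -0.83 over these 15 and -0.51 over all 19 members on the array, and 10 were lower in both MSC arrays than in both BM arrays (22.8% of all tested probes). Before adjustment, 7 were lower with p under 0.05, against 7.04% of all tested probes. Ppbp, a chemokine of platelet granules, had 11.04 and 10.84 in MSC and 12.31 and 12.69 in HSC, and was saturated at 14.89 and 14.85 in BM. It was at least 15.2-fold lower in MSC than in BM (adjusted p = 0.00542). Treml1, a receptor of platelet granule membranes, had 8.24 and 8.30 in MSC, 9.04 and 9.41 in HSC and 11.50 and 11.63 in BM, and fell by 3.30 (SE 0.22, adjusted p = 0.00641). Clec1b, the podoplanin receptor of platelets, had 9.24 and 9.52 in MSC, 10.21 and 10.25 in HSC and 11.99 and 11.97 in BM, and fell by 2.60 (SE 0.20, adjusted p = 0.0105). For all of these the HSC values lay between MSC and BM.

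Relative to HSC, the platelet genes differed in MSC by -1.56 for Ppbp (adjusted p = 0.0495), -0.95 for Treml1 (adjusted p = 0.12) and -0.85 for Clec1b (adjusted p = 0.13), of which only Ppbp passed. The von Willebrand receptor chains Gp1bb and Gp9 were lower in MSC with fold changes of -1.55 and -1.16 but were not called (adjusted p = 0.102 and 0.274). Pf4, the granule chemokine that defines the lineage, had 9.49 and 11.30 in MSC, 9.21 and 9.31 in HSC and 11.68 on the only usable BM array, and could not be separated from BM (adjusted p = 0.525). Slc6a4, the serotonin transporter through which platelets are loaded, had 8.79 and 8.74 in MSC against 10.79 and 10.83 in BM and fell by 2.05 (adjusted p = 0.0267).

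None of the 16 tested stem and progenitor cell genes was called, against 0.43% of all tested probes, and their median was 0.04. The homeobox gene Meis1, which is active in stem cells and megakaryocytes, came closest, with 8.53 and 7.98 in MSC, 8.67 and 8.69 in HSC and 9.89 and 10.05 in BM (fold change -1.72, adjusted p = 0.0528). Myct1 had 7.84 and 7.99 in MSC against 9.33 and 9.24 in BM (-1.36, adjusted p = 0.0939). The stem cell factor receptor Kit had 9.56 and 8.92 in MSC against 10.58 and 9.71 in BM (adjusted p = 0.396). Ly6a (Sca-1), which interferon is known to induce, was higher in MSC with 13.09 and 14.47 against 12.34 and 12.12 in BM, without passing (1.55, adjusted p = 0.263).

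Antigen presentation changed in single genes. Of 17 tested genes of dendritic cells and MHC class II 1 fell, against 0.278% of all tested probes, and the median was -0.30. Cd209a, a lectin of monocyte-derived dendritic cells, had 8.41 and 8.55 in MSC, 9.36 and 9.64 in HSC and 10.95 and 11.34 in BM, and fell by 2.67 (SE 0.23, adjusted p = 0.0105). H2-Ob, a chain of the B cell chaperone H2-O that restrains peptide loading, was not on the list and had 7.90 and 8.68 in MSC, 9.94 and 10.00 in HSC and 10.87 and 10.72 in BM (fall by 2.51, adjusted p = 0.0267). The H2-DM chain H2-DMb1 and the H2-O chain H2-Oa were lower by -1.30 and -1.16 on the log2 scale without passing (adjusted p = 0.0955 and 0.209). Tcf4, the transcription factor of plasmacytoid dendritic cells, had 10.03 and 10.82 in MSC against 12.16 and 11.36 in BM (adjusted p = 0.254).

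Kallikreins are secreted serine proteases that release kinins and other peptides. Only 5 of their probes were tested, 4 of them through BM alone, and 2 fell (0.278% of all tested probes were lower). The median was -1.32 over these 5 and -0.06 over all 18 members on the array. Klk1b5 had 7.35 on both MSC arrays, 9.15 and 9.18 in HSC and 10.48 and 10.55 in BM, and was at least 8.74-fold lower in MSC than in BM (adjusted p = 0.00542). Klk1 had 7.01 and 7.10 in MSC, 8.86 and 8.98 in HSC and 9.89 and 10.70 in BM, and was at least 7.61-fold lower (adjusted p = 0.0121). Neither was above background in MSC. Klk1b27 had 7.48 and 7.36 in MSC against 8.42 and 9.07 in BM (adjusted p = 0.17). The members are similar in sequence, so that a probe may bind several of them.

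Of the other genes that fell, only Reln (extracellular matrix) and Neil1 (DNA repair) were on a list. Several are known from neurons or muscle. Uchl1, a neuronal ubiquitin hydrolase, and Smtnl2, a smoothelin-like protein, were above background on neither MSC array and were at least 4.06-fold and at least 4.50-fold lower than in BM, where Uchl1 had 9.21 and 9.57 and Smtnl2 had 9.50 and 9.66. Myl4, an embryonic myosin light chain, had 7.15 and 7.83 in MSC, 11.32 and 11.02 in HSC and 9.80 and 10.43 in BM (fall by 2.63, adjusted p = 0.0361). The glycoprotein Reln had 9.39 and 9.49 in MSC, 10.9975 and 11.19 in HSC and 10.98 and 11.39 in BM (fall by 1.74, adjusted p = 0.0397). Cox6a2, a heart and muscle subunit of cytochrome c oxidase, fell by 2.03 (adjusted p = 0.0367). Of the skeletal muscle list, 4 genes were tested and none was called, against 0.43% of all tested probes. Their median was -0.35, with 3 below 0 and 1 above, and it was 0.02 over all 15 members on the array. Eno3 had 9.17 and 9.34 in MSC against 9.70 and 9.88 in BM, and Tnni2 had 9.70 and 10.01 against 9.31 and 9.55. So few tested genes cannot show whether muscle genes fell as a set.

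Neil1, which removes oxidized bases from DNA, had 9.12 and 9.08 in MSC, 11.22 and 11.53 in HSC and 10.99 and 11.28 in BM, and fell by 2.04 (adjusted p = 0.0235). A second probe of Neil1 had 8.84 and 8.72 in MSC against 9.77 and 10.53 in BM and did not pass (adjusted p = 0.187). The pyrimidine-degrading enzyme Upb1 fell by 3.03 (adjusted p = 0.0235) and the peptide transporter Slc15a2 by 1.52 (adjusted p = 0.0398). Carboxypeptidase M (Cpm), stannin (Snn) and the cation channel Trpc6 were above background on neither MSC array and were at least 3.54-fold, 2.26-fold and 1.74-fold lower. A second probe of Snn was above background on no array, with means of 6.99 in MSC and 6.98 in BM, and was not tested.

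Calls in the list of proinflammatory cytokines and chemokines were limited to 2 chemokines. Of 27 tested proinflammatory genes 2 rose and none fell (0.152% of all tested probes rose), with a median of 0.23. Ccl8, a chemokine of monocytes and activated T cells, had 13.93 and 15.20 in MSC, 12.77 and 12.29 in HSC and 10.01 and 9.04 in BM. It rose by 5.03 (SE 0.49, adjusted p = 0.0153), or 32.8-fold, although the second MSC spot was saturated. Cxcl9, an interferon-gamma-induced chemokine that attracts T cells through CXCR3, had 11.78 and 13.19 in MSC, 11.67 and 11.17 in HSC and 9.21 and 9.01 in BM, and rose by 3.37 (SE 0.45, adjusted p = 0.0428). Both chemokines also exceeded both BM values in both HSC pools. The difference between MSC and HSC was 2.03 for Ccl8 (adjusted p = 0.13) and 1.07 for Cxcl9 (adjusted p = 0.3), which did not pass.

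Ccl7, a monocyte chemokine encoded beside Ccl8, was above background on neither BM array and had 9.73 and 11.95 in MSC. Its difference of at least 10.5-fold did not pass the test (adjusted p = 0.104), and the MSC pools were far apart. Cxcl10, the other CXCR3 ligand on the list, had 9.82 and 11.19 in MSC, 9.40 and 8.32 in HSC and 8.41 and 8.23 in BM (2.18, adjusted p = 0.202). Il12a, a subunit of a cytokine that activates NK and T cells, pointed the other way with 9.70 and 8.46 in MSC, 12.05 and 12.47 in HSC and 11.31 and 11.41 in BM. Its fold change was -2.28 (adjusted p = 0.0997). Among 18 tested anti-inflammatory genes none was called, against 0.43% of all tested probes, and the median was 0.15. The cytokine Il10 had 8.75 and 10.02 in MSC against 7.87 and 7.88 in BM (adjusted p = 0.251), and the glucocorticoid-induced gene Tsc22d3 had 13.74 and 13.45 in MSC against 14.37 and 14.97 in BM (adjusted p = 0.231).

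Acute phase genes were represented by Saa3, a serum amyloid made outside the liver by macrophages and stromal cells. It had 10.65 and 10.98 in MSC and 9.13 and 8.01 in HSC, and was above background on neither BM array. It was at least 10.0-fold higher in MSC than in BM (adjusted p = 0.0235) and was the single call among 14 tested acute phase and complement genes (0.152% of all tested probes rose). Their median was 0.83, with 3 of them tested through MSC alone, and it was 0.23 over all 20 members on the array. Before adjustment, 8 of the 14 were higher with p under 0.05, against 5.38% of all tested probes, and none was lower. Complement factor B (Cfb) had 9.52 and 10.51 in MSC against 7.71 and 7.68 in BM, without passing (2.32, adjusted p = 0.0808). Outside the lists, the pentraxin Ptx3, a soluble pattern receptor, had 10.32 and 10.39 in MSC, 9.76 and 9.69 in HSC and 8.83 and 8.50 in BM, and rose by 1.69 (adjusted p = 0.0367). The cysteine protease inhibitor Stfa3 rose by 2.28 (adjusted p = 0.0351) and the apoptosis inhibitor Bcl2a1b by 2.22 (adjusted p = 0.0428), Bcl2a1b being measured on a single MSC array. Both belong to families of near-identical genes that a probe may not separate.

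None of the 28 tested interferon-induced genes was called, but most had higher values in MSC. Their median log2 fold change was 0.99, against 0.01 over all tested probes, and 27 of the 28 had a positive fold change. The values of both MSC arrays exceeded those of both BM arrays for 18 members, against 21.2% of all tested probes. Before adjustment, 14 of 28 were higher with p under 0.05, against 5.38% of all tested probes. The immunity-related GTPase Iigp1 had 10.80 and 12.20 in MSC, 10.84 and 9.94 in HSC and 8.92 and 8.33 in BM (2.88, adjusted p = 0.102). Ifit1, an RNA-binding antiviral protein, had 11.59 and 10.70 in MSC, 10.75 and 10.65 in HSC and 9.56 and 9.16 in BM (1.78, adjusted p = 0.105). Gbp2, a guanylate-binding protein, was above background on neither BM array and had 8.39 and 9.58 in MSC (adjusted p = 0.215). The median lay between 0.41 and 1.18 for the 4 pairs of an MSC with a BM array, and it was 0.55 in HSC relative to BM. Of the 28 genes, 7 had been tested through MSC alone.

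A further interferon-induced GTPase outside the list was called. Tgtp1 had 14.22 and 14.03 in MSC, 13.84 and 13.91 in HSC and 12.35 on both BM arrays, and rose by 1.78 (SE 0.20, adjusted p = 0.0251). The MSC and HSC values were close, with a difference of 0.25 (SE 0.20, adjusted p = 0.55). The gene has a near-identical neighbour, Tgtp2, which the probe may also bind.

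**Figure D3:**
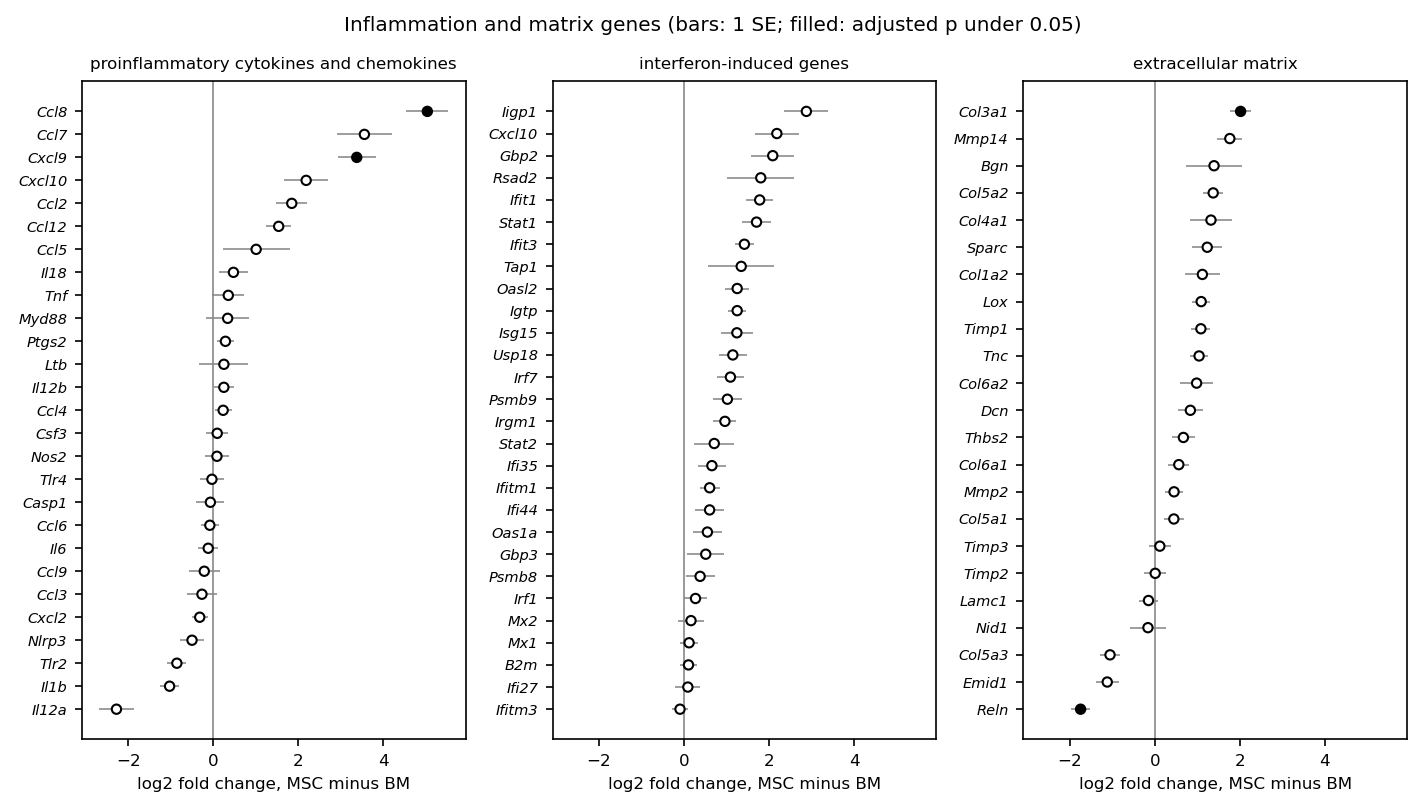
Log2 fold change of MSC minus BM (x axis, bars 1 SE) for the tested members of 3 gene lists, with filled points for an adjusted p under 0.05. Ccl8 and Cxcl9 are filled in the first panel, 27 of 28 interferon-induced genes lie right of 0 in the second with none filled, and Col3a1 and Reln are filled in the third.

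The stromal lists held single calls. Of 23 tested extracellular matrix genes 1 rose and 1 fell, against 0.152% and 0.278% of all tested probes. The median was 0.84 over these 23 and 0.57 over all 33 members on the array. The MSC arrays lay above the BM arrays for 15 of them, against 21.2% of all tested probes, and below for 3. Col3a1, a fibrillar collagen of reticular fibres, had 10.56 and 10.46 in MSC, 9.30 and 9.72 in HSC and 8.69 and 8.29 in BM, and rose by 2.02 (SE 0.25, adjusted p = 0.0351). Reln, described above, was the member that fell. Mmp14, a membrane-bound collagenase, had 11.46 on the usable MSC array against 9.82 and 9.57 in BM (1.77, adjusted p = 0.109). Col5a2, which nucleates collagen fibrils, was above background on neither BM array and at least 2.60-fold higher in MSC, without passing (adjusted p = 0.0822). Before adjustment 12 of the 23 were higher with p under 0.05 (5.38% of all tested probes) and 3 were lower (7.04%). Of the 23, 7 had been tested through MSC alone.

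Of 18 tested niche and bone genes 1 rose, against 0.152% of all tested probes. The median was 0.38, with 3 genes tested through MSC alone, and it was 0.19 over all 29 members on the array. Both MSC arrays lay above both BM arrays for 9 of the 18, against 21.2% of all tested probes, and below for 1. The gene that rose was Mgp, matrix Gla protein, an inhibitor of calcification, with 11.30 and 12.15 in MSC, 9.23 and 9.58 in HSC and 9.44 and 9.46 in BM (2.27, SE 0.31, adjusted p = 0.0461). Mgp also differed from HSC, by 2.32 (adjusted p = 0.044). Osteopontin (Spp1) had 11.45 and 12.48 in MSC against 10.51 and 9.07 in BM (adjusted p = 0.226). Osteocalcin (Bglap) had 8.66 and 10.32 in MSC, 9.57 and 10.30 in HSC and 8.10 and 8.52 in BM (adjusted p = 0.44). The chemokine Cxcl12, which retains stem cells in the niche, differed within the groups more than between them, with 8.82 and 11.57 in MSC and 10.69 and 7.68 in BM. The stromal markers Lepr and Col1a1 were each above background on 1 MSC array and on no BM array, and were not tested.

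Endothelial and fat cell genes gave no calls among 13 and 10 tested members, with medians of 0.20 and 0.51. The tight junction gene Cldn5 was saturated at 14.17 on MSC replicate 1 but had 8.67 on MSC replicate 2, so that its difference of 3.92 (SE 1.56, adjusted p = 0.38) rests on 1 spot. The endothelial markers Cdh5 and Pecam1 were not above background on enough arrays to be tested. Cfd (adipsin), which fat cells secrete, had 10.05 and 11.16 in MSC, 10.36 and 10.26 in HSC and 8.19 and 8.55 in BM, a difference of 2.23 (adjusted p = 0.0822) that MSC and HSC shared. The fatty acid carrier Fabp4 and lipoprotein lipase (Lpl) were higher by 1.44 and 1.43 without passing. The related carrier Fabp5 rose, with 13.88 and 14.40 in MSC, 12.42 and 12.51 in HSC and 12.25 and 12.50 in BM (1.76, adjusted p = 0.0499). Among 15 tested adhesion and homing genes none was called, against 0.43% of all tested probes. The kinase Syk, which signals from integrins and from the B cell receptor, had 10.48 and 10.30 in MSC, 11.82 and 11.96 in HSC and 11.73 and 12.09 in BM (-1.52, adjusted p = 0.0578), and the integrin chain Itgb1 was higher by 0.78 (adjusted p = 0.312).

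Of 24 tested p53 target genes 1 rose and none fell (0.152% of all tested probes rose), with a median of 0.51. Cdkn1a, which encodes the cyclin-dependent kinase inhibitor p21, had 12.36 and 12.55 in MSC, 10.22 and 10.36 in HSC and 9.97 and 9.52 in BM. It rose by 2.71 (SE 0.23, adjusted p = 0.0105), or 6.54-fold, and exceeded HSC by 2.16 (SE 0.23, adjusted p = 0.025). Phlda3, Zmat3 and the cyclin Ccng1 were higher than in BM by 1.45, 1.27 and 1.19 without passing (adjusted p = 0.133, 0.134 and 0.0936), and 13 of 24 members lay above BM on both MSC arrays, against 21.2% of all tested probes. DNA repair and proliferation genes stayed near the centre, with medians of -0.14 over 25 and 0.19 over 30 tested genes. Besides Neil1, which fell, none of these was called (0.278% of all tested probes were lower).

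Stress genes contributed Hspa1a, a heat-inducible chaperone, with 11.64 and 11.10 in MSC, 9.42 and 9.71 in HSC and 9.18 and 9.48 in BM (2.04, adjusted p = 0.0397). It was the single call among 26 tested immediate early and heat shock genes (0.152% of all tested probes rose). Its near-identical copy Hspa1b had 11.89 and 10.96 in MSC against 9.22 and 9.62 in BM (2.00, adjusted p = 0.0822), and the probes may not separate the copies. None of 33 antioxidant and glutathione genes was called, against 0.43% of all tested probes, and the median was 0.33. Both MSC arrays lay above both BM arrays for 15 of them, against 21.2% of all tested probes, and below for 5 (22.8%). Before adjustment, 9 were higher with p under 0.05 (5.38% of all tested probes) and 1 was lower (7.04%). The glutathione transferase Gstm5 had 12.50 and 12.64 in MSC, 11.32 and 11.09 in HSC and 11.45 and 11.36 in BM (1.17, adjusted p = 0.0963), and Srxn1 and Nqo1, which reduce peroxiredoxins and quinones, were higher by 1.14 and 1.03 (adjusted p = 0.169 and 0.212).

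Among further genes that rose, cytidine deaminase (Cda), which salvages pyrimidines and is abundant in granulocytes, had 10.31 and 10.41 in MSC and was above background on neither HSC nor BM array. It was at least 7.55-fold higher than in BM (adjusted p = 0.00641) and at least 6.51-fold higher than in HSC (adjusted p = 0.014). The uncharacterized transcript 4930542N06Rik had 10.75 and 11.50 in MSC, 8.73 and 8.29 in HSC and no BM value above background, for an increase of at least 10.4-fold (adjusted p = 0.0121). Plek2, a pleckstrin of maturing erythroblasts, had 12.84 and 12.55 in MSC, 11.51 and 11.41 in HSC and 10.16 and 10.83 in BM (2.20, adjusted p = 0.0367). The lysosomal protease Ctsf rose by 2.11 (adjusted p = 0.0388), and C1qtnf4, a secreted C1q-like protein, exceeded BM at least 2.70-fold (adjusted p = 0.0442).

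The red cell, neutrophil and eosinophil programmes gave no calls, against 0.43% of all tested probes. At that share, most lists of this size would hold no call. The 28 tested erythroid genes had a median of 0.37, and 24 had a positive fold change. Both MSC arrays lay above both BM arrays for 11 of them, against 21.2% of all tested probes, and below for 1. The transferrin receptor Tfrc had 12.15 and 11.95 in MSC, 11.55 and 11.54 in HSC and 10.96 and 11.24 in BM (0.95, adjusted p = 0.181). Slc4a1, the anion exchanger of red cells, had 13.05 and 13.32 in MSC, 12.13 and 10.82 in HSC and 13.18 and 10.26 in BM, and Klf1 had 11.23 and 10.94 in MSC, so that for both the MSC arrays resembled BM replicate 1. The 20 tested neutrophil genes had a median of -0.20, and 8 were lower on both MSC arrays than on both BM arrays (22.8% of all tested probes). Elane had 14.88 and 13.88 in MSC and was saturated at 14.997 and 14.985 in BM, and the collagenase Mmp8 had 14.97 and 14.84 in MSC and was saturated at 15.39 and 15.40 in BM, so that the true differences may be larger. The 14 tested genes of eosinophils, basophils and mast cells had a median of -0.23. Of these, 5 were lower on both MSC arrays than on both BM arrays (22.8% of all tested probes), and 1 was higher. The basophil protease Prss34 had 10.31 and 9.48 in MSC against 10.79 and 10.97 in BM (adjusted p = 0.355), while Mcpt8, Prg2 and Cpa3 differed by -0.57, -0.26 and -0.13.

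**Figure D4:**
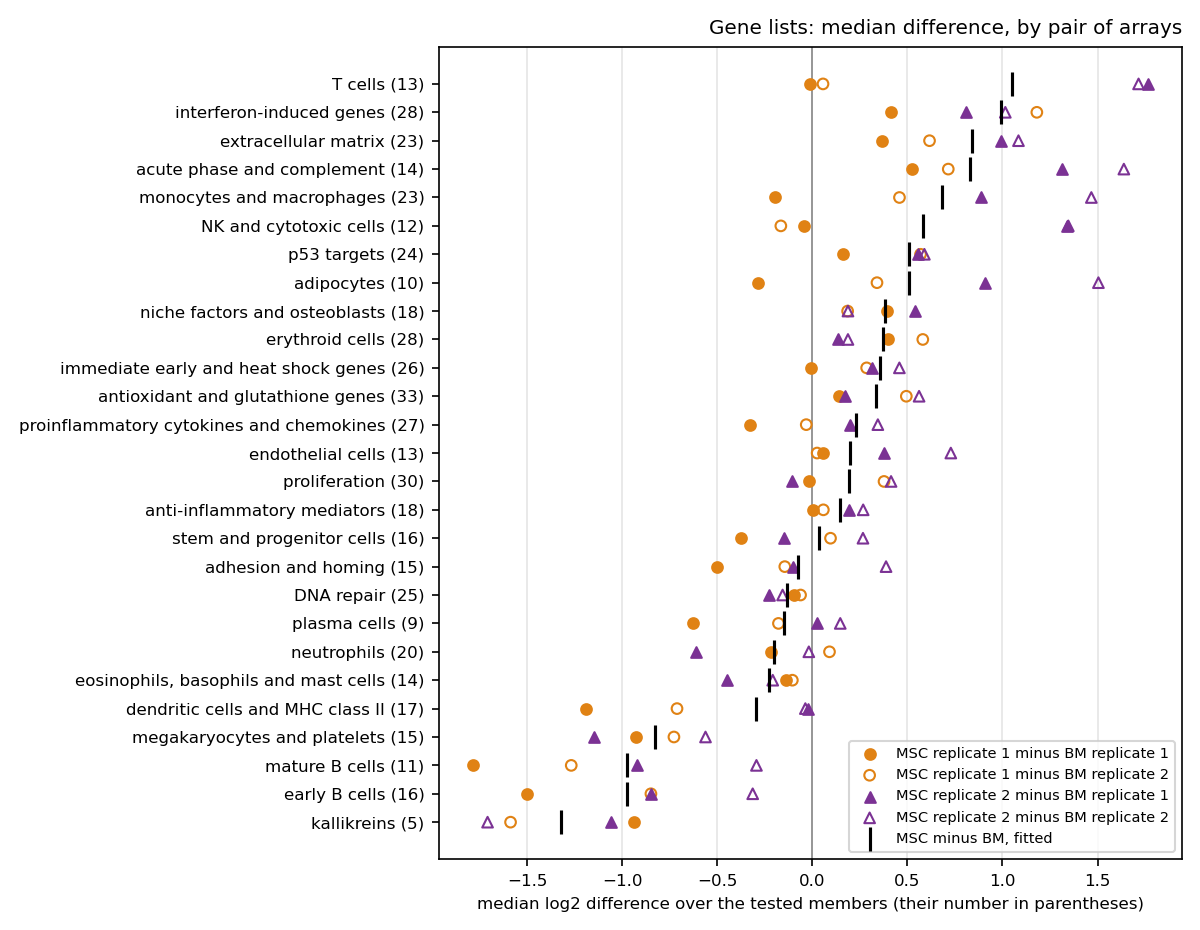
Median log2 difference over the tested members of each gene list (x axis), given for the 4 pairs of an MSC with a BM array and for the fit. The early B, mature B and platelet lists lie left of 0 in all 4 pairs, as do the kallikrein, dendritic cell, eosinophil and DNA repair lists. The T cell, NK cell, macrophage and adipocyte lists lie right of 0 mainly with MSC replicate 2 (triangles).

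T cell, NK cell and macrophage genes differed between the MSC pools. All 13 tested T cell genes had a positive fold change and the median was 1.05, but none was called. The median difference between MSC replicate 1 and MSC replicate 2 was -1.74, and replicate 1 was at the level of BM, with medians of -0.01 and 0.06 relative to the BM arrays. Cd3g, a chain of the T cell receptor complex, had 10.50 and 12.96 in MSC, 10.84 and 10.54 in HSC and 10.65 and 10.61 in BM. The T cell kinase Lck had 11.73 and 13.71 in MSC against 11.82 and 11.88 in BM. The costimulatory receptor Cd28 was high in both pools, with 12.39 and 12.21 in MSC, 11.36 and 12.04 in HSC and 10.34 and 11.25 in BM (1.504, adjusted p = 0.214). The 12 tested NK and cytotoxic genes had a median of 0.58 and a difference between the MSC pools of -1.61. Granzyme B (Gzmb) had 8.71 and 10.70 in MSC against 7.94 and 7.27 in BM (2.10, adjusted p = 0.272), and the granule protein Nkg7 had 10.65 and 12.68 in MSC against 11.54 and 11.25 in BM.

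The 23 tested genes of monocytes and macrophages had a median of 0.68 and a difference between the MSC pools of -1.08. Of these genes 4 were tested through MSC alone, and the median was 0.49 over all 24 members on the array. Here replicate 1 was partly high as well. The heme oxygenase Hmox1, induced in macrophages that degrade red cells, had 12.60 and 13.58 in MSC, 11.81 and 11.80 in HSC and 11.34 and 11.45 in BM (1.69, adjusted p = 0.127). The scavenger receptor Marco had 8.92 and 10.70 in MSC against 7.96 and 7.32 in BM (2.17, adjusted p = 0.225). The complement C1q chains of resident macrophages moved together, with C1qa at 12.73 and 13.95 in MSC and 12.13 and 11.51 in BM, and differences of 1.52, 1.51 and 1.47 for C1qa, C1qb and C1qc (adjusted p = 0.262, 0.275 and 0.304). The receptor Csf1r, which defines the lineage, had 9.79 and 10.89 in MSC against 11.34 and 10.44 in BM (-0.55, adjusted p = 0.756). The mean log2 level over the T cell list was 9.67 and 11.05 in MSC, 9.24 and 9.21 in HSC and 9.47 and 9.37 in BM, and over the macrophage list 10.71 and 11.66 in MSC, 10.72 and 10.52 in HSC and 10.80 and 10.41 in BM. Ccl8, Cxcl9 and Ccl7 were also higher in MSC replicate 2 than in replicate 1, and the part of T cells or macrophages in their values was not tested.

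**Figure D5:**
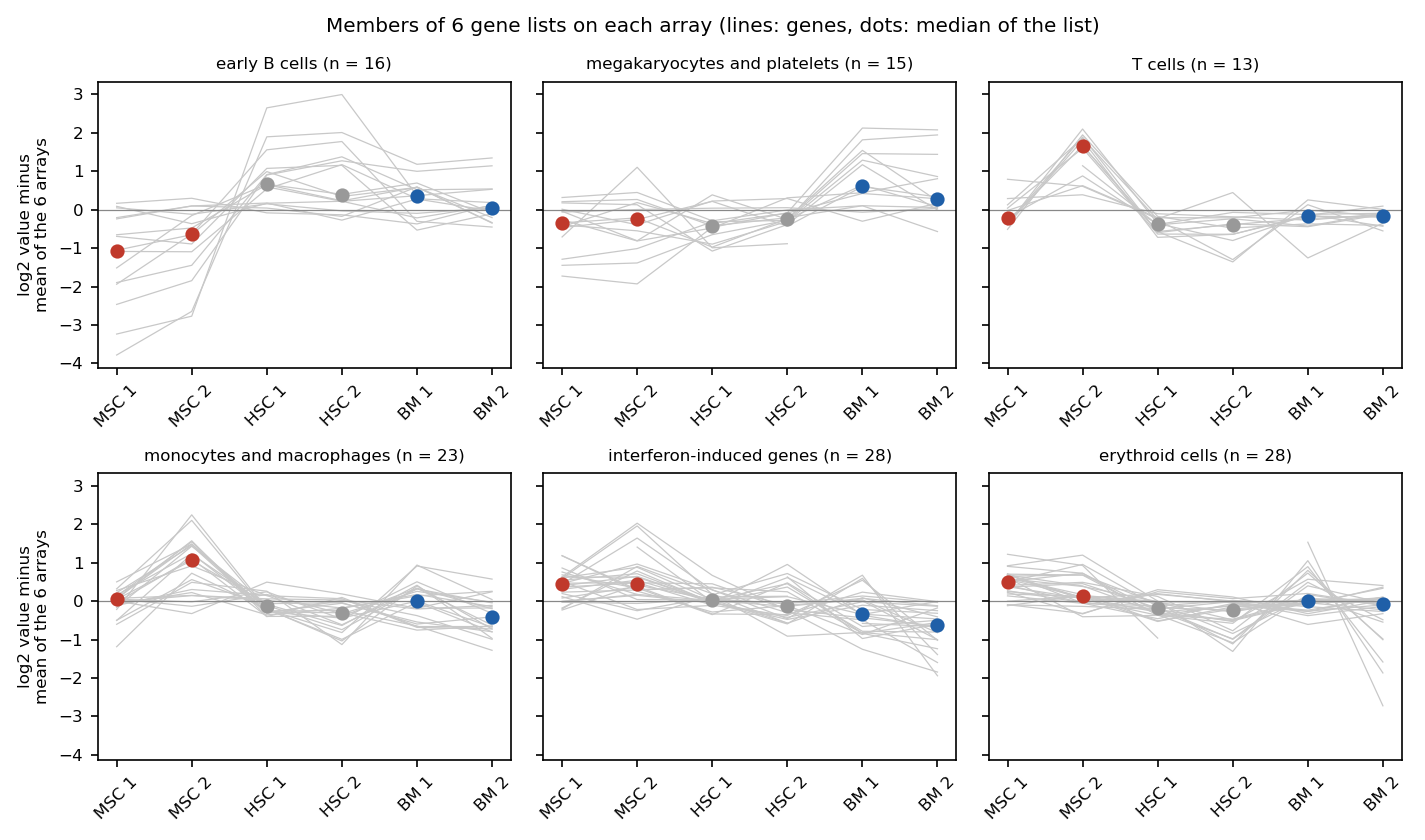
Log2 value of each tested member minus its mean over the 6 arrays (y axis) for 6 gene lists, with lines for genes and dots for the median of the list on each array (x axis; MSC red, HSC grey, BM blue). The T cell dots lie below 0 on all arrays but MSC replicate 2, the early B cell dots are lowest on both MSC arrays, and the interferon dots are highest in MSC and lowest in BM.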

How the data were processed

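RNA of pooled marrow was hybridized to CodeLink UniSet Mouse 20K I arrays, and the authors deposited spot intensities (spot mean and local background median) from CodeLink Expression Analysis 4.0.0.23520 with a table of normalized log2 values, whose method is not given in the sources used here. The deposited intensities were corrected by normexp (offset 50), spots marked as defective were left out, and values were quantile normalized over 6 arrays. The deposited log2 values served as an alternative. All 6 arrays were fitted with limma 3.58.1 in R 4.3.3, with Benjamini-Hochberg adjustment over the probes tested in each contrast and a threshold of 0.05. A fold was given as "at least" where a group was above background on no array, or saturated on all. The number of arrays limits the precision. Symbols were found for 14632 of 19801 probes. Named genes were the called list members, the largest rises and falls among called probes with a symbol, 2 to 4 members of each list by absolute fold change, defining lineage markers and check genes. Members and lists were chosen with earlier results of these data known. The pipeline was tested on simulated data. Alternatives covered background correction, scaling, filters, samples, a block and a t-test.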

Additional observations from a re-analysis of the deposited data

How the results depend on the processing

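In MSC against BM, 51 probes were called (18 higher, 33 lower), of which 23 were listed genes and 44 were genes named in the text. In MSC against HSC, 56 probes were called. With background-subtracted intensities and a floor the numbers were 7 (1 higher, 6 lower), 5, 6 and 11. With the deposited values they were 24 (6 higher, 18 lower), 14, 19 and 24, and with no filter on dim probes 23 (5 higher, 18 lower), 14, 19 and 17. With probes above background on all 6 arrays, 28 were called (16 lower), 26 of them genes named in the text. With the 4 MSC and BM arrays alone 22 were called (5 higher, 17 lower), 14 of them listed and 19 named in the text. Median scaling gave 77 calls, 28 of them higher, and shifted the median of all probes to -0.06. An offset of 16, cyclic loess and a trend in the variance gave 46, 54 and 59 calls, of which 46, 50 and 48 were shared with the 51. Leaving out 1 array gave 14 to 54 calls (3 to 36 higher, 11 to 26 lower), with 8 to 23 listed and 10 to 28 named genes, and 11 to 51 calls in MSC against HSC. The lowest numbers in MSC against BM came without MSC replicate 2, and 23 and 22 probes were called without BM replicate 2 and without either HSC array. With the pool number as a replicate block, 22 probes were called (3 higher, 19 lower), with 13 listed genes, 17 named in the text and 15 calls against HSC. The numbers mark no shared animals, and deviations correlated by -0.186 between MSC and HSC, -0.27 between MSC and BM and 0.464 between HSC and BM. The crossed pairing, added after the data were seen, gave 103 calls (44 higher, 59 lower), 36 listed genes and 222 calls against HSC. The methods' t-test at the study's own thresholds for p and ratio gave 29 probes (10 higher, 19 lower), 23 of them also called by limma. After Benjamini-Hochberg it gave 0, with 877 at an unadjusted p under 0.05. The causes were not tested.

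Of 2107 gene values recomputed, 1720 kept their direction and side of the threshold, 348 lost the call, 31 gained one and 8 changed sign, all on leaving out 1 array. The fold change ranged from -0.12 to 2.34 for Cd3g, -0.12 to 1.86 for Lck and -0.74 to 1.28 for Nkg7, lowest without MSC replicate 2. It ranged from -0.46 to 3.80 for Klf1, -0.49 to 2.52 for Cxcl12, -0.24 to 3.67 for H2ax and -0.51 to 4.05 for Fos, lowest without BM replicate 2, and Cxcl12 was -0.36 without MSC replicate 2. Slide as a block was not run, since each array was a slide of its own and no scan dates were used. Dim and saturated spots limit the size of a difference, and 14 calls have a group above background on no array.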
